A study of Mus musculus with 2 samples.

Results

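Somatostatin and its receptors are described here across the cell classes of the mouse locus coeruleus, the small noradrenergic nucleus of the pons. The 5 genes, Sst, Sstr1, Sstr2, Sstr3 and Sstr4, were taken by their symbols from the 32285 features of the count matrices, and every one was found once. Messenger RNA of dissected locus coeruleus tissue was counted in droplets with the 10x Genomics Chromium system, in 2 libraries. The animals were wild-type C57BL/6N, male and female, between 3 and 4 weeks old. The libraries are batch 1 and batch 2 of 1 untreated group, so a batch effect and a replicate difference cannot be told apart, and how many animals went into each, or whether they were pooled, is not given in the sources used here. The protocols describe papain-dissociated, methanol-fixed cells and also sorted nuclei without tying either to a library, so the word cell stands for both.

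Somatostatin is a peptide cut from a precursor in many interneurons and projection neurons, and it is known for damping the activity of the neurons and endocrine cells it reaches. Its receptors couple to the inhibitory Gi and Go proteins, which lower cyclic AMP by holding back adenylyl cyclases, open inwardly rectifying potassium channels (GIRK channels) and close presynaptic calcium channels. Neurons of the locus coeruleus, which supply noradrenaline to much of the brain, are classically hyperpolarised by somatostatin.

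The libraries stood apart in depth before any gene was considered. Library 1 held 304 cell barcodes and 5600693 unique molecular identifiers (UMIs, single captured transcripts), with a median of 11010 UMIs per barcode. Library 2 held 2796 barcodes and 6895380 UMIs, with a median of 1517. No barcode occurred in both, and 294 and 2679 cells remained after filtering. The series text states 2578 cells; 3100 barcodes are in the files, and its filter is not given. Each level below is therefore given per library, as UMIs of the gene per 1000000 UMIs of all genes summed over a class (CPM).

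Classes were assigned from marker UMIs that include none of the 5 genes. Noradrenergic neurons numbered 12 in library 1 and 75 in library 2, and all 7 noradrenergic markers, Dbh, Slc6a2, Th, Slc18a2, Phox2a, Ddc and Cyb561, reached 10 CPM in both libraries. Their summed CPM was 9484 and 7199, and their median number of marker UMIs per cell was 750.0 and 51.0. Among the marker lists of other cell classes, the pan-neuronal list aside, the highest median in these cells was the 44.5 and 3.0 UMIs of the microglia or macrophage list, and only 1 of its 9 markers reached 10 CPM. The gate is a range and not a type: 4 and 8 noradrenergic cells lay just inside the boundary, and 0 and 7 cells just outside. Excitatory neurons (82 and 274 cells) and inhibitory neurons (34 and 218 cells) were split by UMIs of an excitatory and an inhibitory marker list. The split rested on 1 UMI in 11 and 121 excitatory cells and in 1 and 78 inhibitory cells. The excitatory list was Slc17a6, Slc17a7, Lmx1b, Lhx9 and Tlx3, and the inhibitory list Gad1, Gad2, Slc32a1, Slc6a5 and Pax2. Both lists hold transcription factors, so a cell could be placed without a UMI of a transmitter gene. Neurons with UMIs of both lists, without a 3-fold excess, formed a group called both transmitters below (12 and 37 cells). Those with UMIs of neither list formed the no-transmitter group (6 and 333 cells). In addition, 21 cells of library 1 and 511 of library 2 stayed mixed or unassigned.

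The genes differed in how much of them was captured. Over all barcodes Sst had 121 UMIs in library 1 and 114 in library 2. Sstr2 had 77 and 54, Sstr1 27 and 15, and Sstr3 13 and 25. Sstr4 gave 1 UMI in library 1 and none in library 2. The features also hold Sstr5, the remaining receptor, and Cort, which encodes the related peptide cortistatin; both had 0 UMIs in both libraries. A count of 0 allows up to 0.536 CPM in library 1 and 0.435 CPM in library 2, by counting error alone.

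In GENCODE M21, on build GRCm38, Sst (ENSMUSG00000004366) lies on the minus strand of chromosome 16 from 23889573 to 23890958, in 2 exons. Sstr1 (ENSMUSG00000035431) lies on chromosome 12 from 58211772 to 58214444, and Sstr2 (ENSMUSG00000047904) on chromosome 11 from 113619342 to 113626028, both on the plus strand. Sstr3 (ENSMUSG00000044933) is on the minus strand of chromosome 15 from 78537008 to 78544685, and Sstr4 (ENSMUSG00000037014) is a single-exon gene on the plus strand of chromosome 2 from 148395344 to 148396767. Sstr2 lies inside Slc39a11, a zinc transporter gene on the opposite strand, and no other annotated gene overlaps a member.

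Sst and Sstr2, the members with the most UMIs, both carry the letters TGACGTCA close to their start in RefSeq's promoter windows (GRCm38.p6, 250 bases before to 50 after the start). This is the cyclic AMP response element, the site class through which cyclic AMP is known to drive Sst transcription. The 30 bases around each match are shown because the element is the sequence feature that these 2 genes share; the match is in capitals and each run reads along the gene's own strand.
Sst, chr16:23890874-23890903, minus strand: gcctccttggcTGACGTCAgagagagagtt
Sstr2, chr11:113619258-113619287, plus strand: ccaagctgccgTGACGTCAcgggcgggggc
The match lies 48 to 41 bases before the RefSeq start of Sst and 58 to 51 bases before that of Sstr2. GENCODE M21 starts Sst 114 bases further upstream than RefSeq, so the run shown for Sst falls within the gene there. The letters read the same on both strands and occurred in 588 of 32851 mouse promoter windows of that length, or 1.79%. They were in neither of the 2 windows of Sstr3 nor in that of Sstr4, and Sstr1 has no window in the table. The 5-letter half-site TGACG, which the full match contains, was found on either strand in 20.8% of all windows, and among the others only in 1 of the Sstr3 windows. No readout here measures binding at these letters.

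Sst, the ligand, was seen in neurons on both sides of the transmitter split. Its level was 24.0 CPM in library 1 and 28.3 CPM in library 2 in excitatory neurons (26.2 ± 3.06, SD, n = 2). In inhibitory neurons it was 19.1 and 40.4 CPM (29.8 ± 15.1, SD, n = 2), so the 2 classes overlapped. The both-transmitter group reached 198.8 CPM in library 1 and 30.7 CPM in library 2. The no-transmitter group gave 132.7 CPM in library 1, from 6 UMIs in 1 of its 6 cells. In library 2 it gave 21.6 CPM, the lowest of these groups there. The high values of library 1 came from few cells: 2 cells held 36 of the 52 Sst UMIs of the group with both transmitters, and without them it stood at 80.4 CPM. By mean level over the libraries, neurons with both transmitters came first, then those with none, then inhibitory and excitatory neurons. Each of these overlapped its neighbour, and excitatory neurons did not overlap the next class, the astrocytes.

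Few or no Sst UMIs were seen in the noradrenergic, trigeminal and granule neurons and in the non-neuronal classes. Cells assigned to no class held 6 UMIs (73.4 CPM) and 18 UMIs (36.8 CPM). Noradrenergic neurons gave 1 UMI in library 1 and 2 UMIs in library 2, or 1.01 and 2.91 CPM. Mesencephalic trigeminal neurons, the large sensory neurons that lie beside the locus coeruleus, gave 0 and 1 UMI. Granule cells, oligodendrocyte precursors and ependymal cells gave none in either library. By counting error alone these zeros allow up to 15.3 and 279.6 CPM in granule cells. They allow 40.9 and 108.1 CPM in precursors, and 12.6 and 27.3 CPM in ependymal cells. For precursors, and for granule cells of library 2, a level like that of excitatory neurons could not be told from 0. All non-neuronal cells together held 0 and 6 UMIs, spread over 3 astrocytes, 2 oligodendrocytes and 1 vascular cell of library 2. The share of oligodendrocytes with an Sst UMI, 0 of 34 and 2 of 673 cells (0.297%, exact 95% interval 0.036 to 1.07%), serves as the level of free RNA at median depths of 9833 and 1439 UMIs. By the same count, 12 of 82 and 19 of 274 excitatory cells and 5 of 34 and 18 of 218 inhibitory cells had an Sst UMI, at median depths of 15640 and 3413 and of 14258 and 2445 UMIs.

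Sstr2, a receptor that couples to Gi and Go proteins, had its highest level in the noradrenergic class in both libraries. Noradrenergic neurons held 49 Sstr2 UMIs in library 1 and 27 in library 2, or 49.6 CPM (95% Poisson interval 36.7 to 65.6) and 39.2 CPM (25.9 to 57.1). Excitatory neurons came next with 12.6 and 13.3 CPM, from 21 and 15 UMIs. The noradrenergic and excitatory values did not overlap between libraries, at 44.4 ± 7.32 against 12.9 ± 0.480 CPM (SD, n = 2 each). Inhibitory neurons gave 1 and 2 UMIs, or 1.91 and 3.00 CPM. Below excitatory neurons each class overlapped its neighbour in the order. Neurons with both transmitters gave 5 UMIs in library 1 and none in library 2, and trigeminal neurons 0 and 1. Glia and vascular cells together gave 0 and 4 UMIs, in 3 oligodendrocytes and 1 astrocyte.

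**Figure D1:**
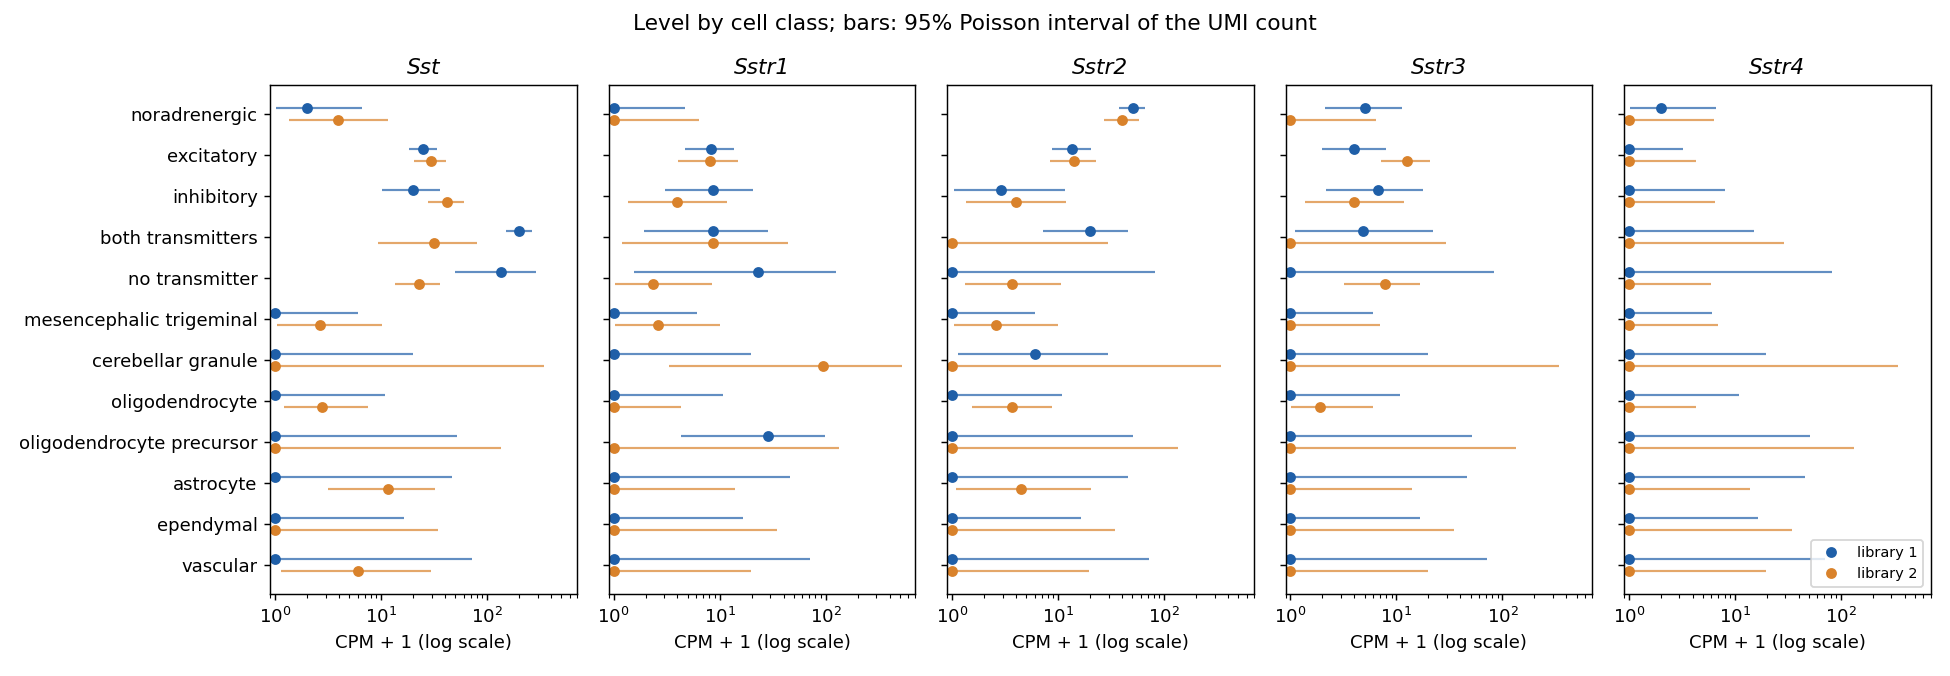
Level of each gene in 12 cell classes, as CPM + 1 on a log axis, 1 point per library with the 95% Poisson interval of its UMI count. Sstr2 is highest in noradrenergic neurons, at 49.6 and 39.2 CPM, where Sst stands at 1.01 and 2.91 CPM, and most intervals of Sstr3 and Sstr4 reach 0.

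Sstr2 was spread over many noradrenergic cells rather than held by a few. It was seen in 9 of 12 cells of library 1 and in 18 of 75 of library 2, and the top cell held 16.3% and 18.5% of its UMIs. Library 1 cells carried between 0 and 8 UMIs with a median of 4.5, and every positive cell there had 2 or more. Library 2 cells carried between 0 and 5, with a median of 0.0, and 12 of the 18 positive cells had a single UMI. Positive cells were deeper than negative ones, with medians of 87050 against 55721 UMIs in library 1 and 12070 against 7094 in library 2. In library 2, 11 of the 49 noradrenergic cells with a UMI of Gal, the galanin gene, and 7 of the 26 without it had Sstr2. In library 1 all 12 cells had Gal UMIs.

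**Figure D2:**
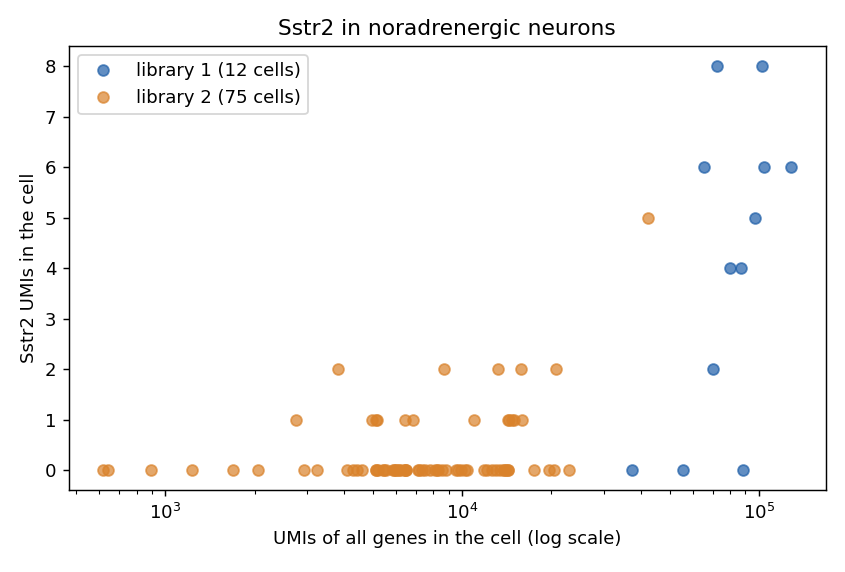
Sstr2 UMIs against the UMIs of all genes (log axis) in each noradrenergic neuron, 12 cells of library 1 and 75 of library 2. Counts reach 8 in the deep cells of library 1 and 5 in library 2, and cells without an Sstr2 UMI occur at most depths of library 2.

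Noradrenergic neurons were also deeper than the pooled other neurons, so shares were compared at equal depth. Their median was 83597 and 7340 UMIs, against 14017 and 2518 in the other neurons; the trigeminal neurons among these had 60464 and 12141. With each cell of library 2 thinned to 1000 UMIs, 4 of 72 noradrenergic cells kept an Sstr2 UMI (5.56%, exact 95% interval 1.53 to 13.6%; 3 shallower cells left out). None of 849 other neurons did (69 left out), a count whose own limit is 0.353%. Thinning was a single random draw, and the interval and limit do not cover how draws differ. Before thinning, the mean per-cell Sstr2 level in library 2 was 39.0 CPM in noradrenergic and 5.4 CPM in other neurons. Unthinned, the shares were 24.0% and 2.07%. In library 1, thinning left Sstr2 in 0 of 12 noradrenergic cells and 0 of 176 other neurons; for the 12 cells this allows a share of up to 25.0%, so no difference was detectable there at this depth. The unthinned shares were 75.0% and 11.9%.

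The test of noradrenergic against all other neurons asked which of the genes set locus coeruleus neurons apart from the neurons around them. Of 11487 genes tested with edgeR's quasi-likelihood test on UMIs summed per class and library, 32.3% passed the adjusted threshold of 0.05, 16.3% higher and 16% lower in noradrenergic neurons. Of the members, Sst and Sstr2 passed the filter on low counts, and both passed the test, in opposite directions. Sst passed that filter through the other neurons alone, so its test could hardly have come out higher in noradrenergic neurons. Sstr2 was 49.6 against 8.10 CPM in library 1 and 39.2 against 5.98 in library 2. Its log2 fold was 2.60 ± 0.32 (SE; edgeR adjusted p = 3.18e-06), and it was higher in both libraries. Sst was 1.01 against 31.3 CPM and 2.91 against 23.9 CPM, with a log2 fold of -3.97 ± 0.56 (edgeR adjusted p = 1.81e-05). Because only 3 UMIs stand on the noradrenergic side, the pooled ratio of the Sst levels was 0.065, with a counting interval of 0.013 to 0.192. The pan-neuronal marker level moved with the class as well, at 9317 and 8920 CPM in noradrenergic neurons against 3340 to 4201 CPM in the excitatory, inhibitory, both-transmitter and no-transmitter groups, 6625 and 7643 CPM in granule cells and 10335 and 10646 CPM in trigeminal neurons; its part in the result was not tested.

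Slc39a11, which overlaps Sstr2 on the other strand, was also higher in noradrenergic neurons, with 104.3 against 51.2 CPM in library 1 and 107.6 against 64.0 in library 2. Whether the counting used strand is not given in the sources used here, so reads of the 2 genes may not be separable. The pooled Sstr2 level was 6.42-fold that of other neurons (counting interval 4.42 to 9.42).

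The remaining receptors were too sparse for that test. Sstr1 had 0 UMIs in the noradrenergic cells of either library against 22 and 14 in the other neurons, which puts its level at least 2.96-fold lower, with 3 counts over both libraries as the floor. It entered the test only without the low-count filter (edgeR adjusted p = 0.00446). Excitatory neurons gave 7.20 and 7.08 CPM of Sstr1, and inhibitory neurons 7.63 and 3.00 CPM from 4 and 2 UMIs. Sstr3, which is known for its place in neuronal primary cilia, gave 4 noradrenergic UMIs in library 1, in 3 cells, and none in library 2. Excitatory neurons had 5 and 13 Sstr3 UMIs, or 3.00 and 11.5 CPM, and inhibitory neurons 3 and 2, or 5.72 and 3.00 CPM. The order of these classes differed between the libraries: noradrenergic (4.05 CPM) and inhibitory neurons stood above excitatory ones in library 1 and below them in library 2. The single Sstr4 UMI of the data lay in a noradrenergic cell of library 1 that also had 6 Sstr2 UMIs and 1 of Sstr3.

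Against non-neuronal cells, where 58.7% of 9860 genes passed (29% higher and 29.8% lower), Sstr2 was the member that could be tested. It was 49.6 against 0 CPM in library 1 and 39.2 against 2.29 in library 2, with a log2 fold of 4.58 ± 0.59 (edgeR adjusted p = 1.14e-13). With DESeq2 the Sstr2 log2 fold was 5.02 (DESeq2 adjusted p = 0.0012). Sstr2 passed the low-count filter through the noradrenergic neurons alone, so a call lower in them was hardly possible. Sst, with 3 UMIs on the noradrenergic side and 6 on the other, gave a pooled ratio of 0.772 with an interval of 0.125 to 3.61, and no difference was detectable at this depth.

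All neurons were then compared with all non-neuronal cells, and 48.4% of 13168 genes passed (25.2% higher and 23.2% lower). Sst was 24.5 against 0 CPM in library 1 and 20.3 against 3.43 in library 2, a log2 fold of 3.23 ± 0.61 (edgeR adjusted p = 0.00181). Sstr2 was 17.3 against 0 and 11.7 against 2.29 CPM, a log2 fold of 3.10 ± 0.70 (edgeR adjusted p = 0.00494). In single libraries the log2 differences, which carry no test, were 5.13 and 2.34 for Sst and 4.64 and 2.04 for Sstr2, the larger ones in library 1, where the non-neuronal cells had 0 UMIs, so that they depend on the prior count and are no bound. Sstr1 was 4.95 against 2.39 CPM in library 1, where both non-neuronal UMIs lay in 1 oligodendrocyte precursor, and 3.47 against 0 in library 2. Its log2 fold of 2.20 ± 1.03 did not pass (edgeR adjusted p = 0.107). Sst, Sstr2 and Sstr1 passed the low-count filter through the neurons alone, so a call lower in neurons was hardly possible. Sstr3 had 13 and 20 UMIs in neurons and 0 and 1 elsewhere, and entered the test only when low counts were not filtered (log2 fold 3.43, edgeR adjusted p = 0.0243).

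Between inhibitory and excitatory neurons, where 4.24% of 8864 genes passed (1.88% higher and 2.36% lower), neither Sst nor Sstr2 did. Sst was lower in inhibitory neurons of library 1 (19.1 against 24.0 CPM) and higher in those of library 2 (40.4 against 28.3), with a log2 fold of 0.19 ± 0.33 (edgeR adjusted p = 0.874). With classes drawn from marker clusters its direction turned, to -0.23 (edgeR adjusted p = 0.838). The pooled ratio was 1.21 with a counting interval of 0.788 to 1.82. Sstr2 was 1.91 against 12.6 CPM and 3.00 against 13.3, lower in inhibitory neurons of both libraries, with a log2 fold of -2.30 ± 0.71 (edgeR unadjusted p = 0.00345, adjusted p = 0.0699). DESeq2 gave -2.39 ± 1.43 (DESeq2 unadjusted p = 0.0934), and marker clusters gave -1.96 (edgeR adjusted p = 0.142). Sstr2 passed the low-count filter here through the excitatory neurons alone. Its pooled ratio was 0.195, with a counting interval of 0.039 to 0.619.

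**Figure D3:**
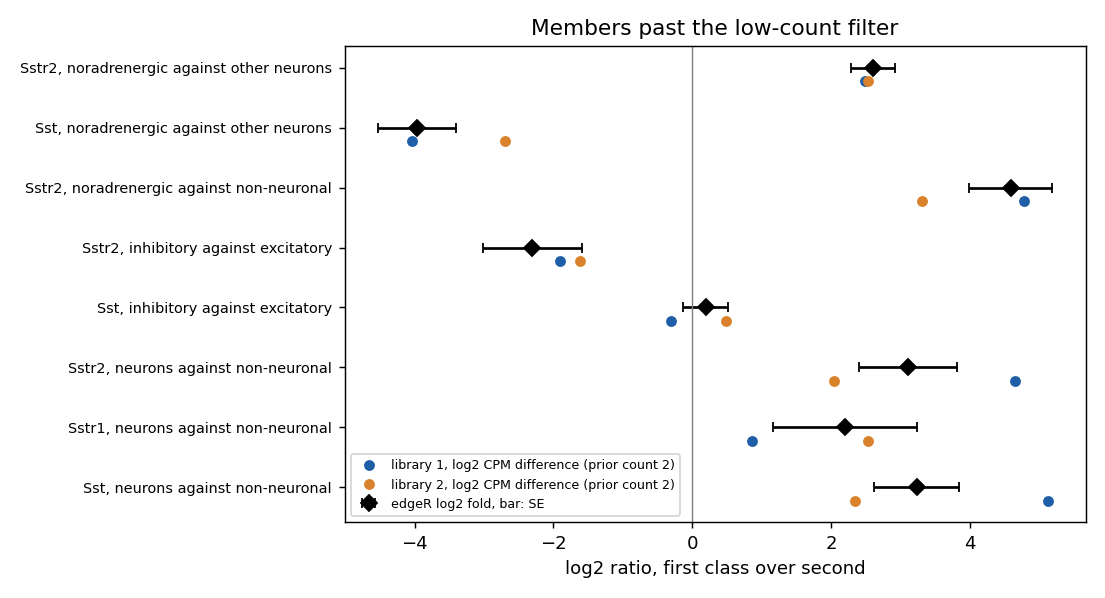
Log2 ratio of the first over the second class for the members that passed the low-count filter in each comparison; diamonds are edgeR folds with their SE, and circles the 2 libraries as differences of log2 CPM with a prior count of 2. Sstr2 in noradrenergic against other neurons lies at 2.60 with both libraries above 0, and Sst in inhibitory against excitatory neurons has 1 library on each side of 0.

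Cells with 2 or more Sst UMIs, 17 in each library, carried several combinations of other genes. These cells were chosen by their Sst count, so what follows describes them and is no test. In library 1, 5 of them had UMIs of Gad2, a GABA-synthesising enzyme, together with Slc17a6, the vesicular glutamate transporter 2, and they held 53 of the 105 Sst UMIs of the 17 cells. The 2 cells with the most Sst, with 21 and 15 UMIs, belonged to that set, and each had Lmx1b UMIs, a transcription factor of hindbrain excitatory and monoaminergic lineages. In library 2 none of the 17 cells had both Gad2 and Slc17a6. A different combination, Penk, the enkephalin precursor, with the transcription factor Meis2 and without Gad1, Gad2 or Slc32a1, occurred in 5 cells of library 1 (26 of 105 UMIs) and in 4 of library 2 (16 of 46 UMIs). Another set carried Gad1 or Slc32a1, the vesicular inhibitory transporter, in 3 cells of library 1 (10 UMIs) and 5 of library 2 (12 UMIs).

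Penk was seen in 47.1% of the cells with 2 or more Sst UMIs in library 1 and 29.4% in library 2, against 25.0% and 9.29% of neurons without Sst. The Penk level was 226 and 357 CPM against 53.1 and 35.5 CPM. The Sst cells include 1 unassigned cell in each library, and that of library 2 held 9 of the 28 Penk UMIs there. The neurons without Sst include the noradrenergic, trigeminal and granule classes, where few or no Sst UMIs were seen. The part of this difference in class mix was not tested. Gad2 was seen in 47.1% and 35.3% of these cells against 29.9% and 20.3%. Meis2 was seen in 47.1% in both libraries against 47.6% and 34.2%. Npy, which marks somatostatin cells of the cortex, was seen in 1 cell of library 1 and in none of library 2. Nos1, another such gene, was seen in 4 cells and 1 cell. Median depth was 15639 and 4360 UMIs in the Sst cells against 14217 and 2609 in the others. The 5 cells with the most Sst held 53.5% of its UMIs in library 1 but 17.8% in library 2.

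**Figure D4:**
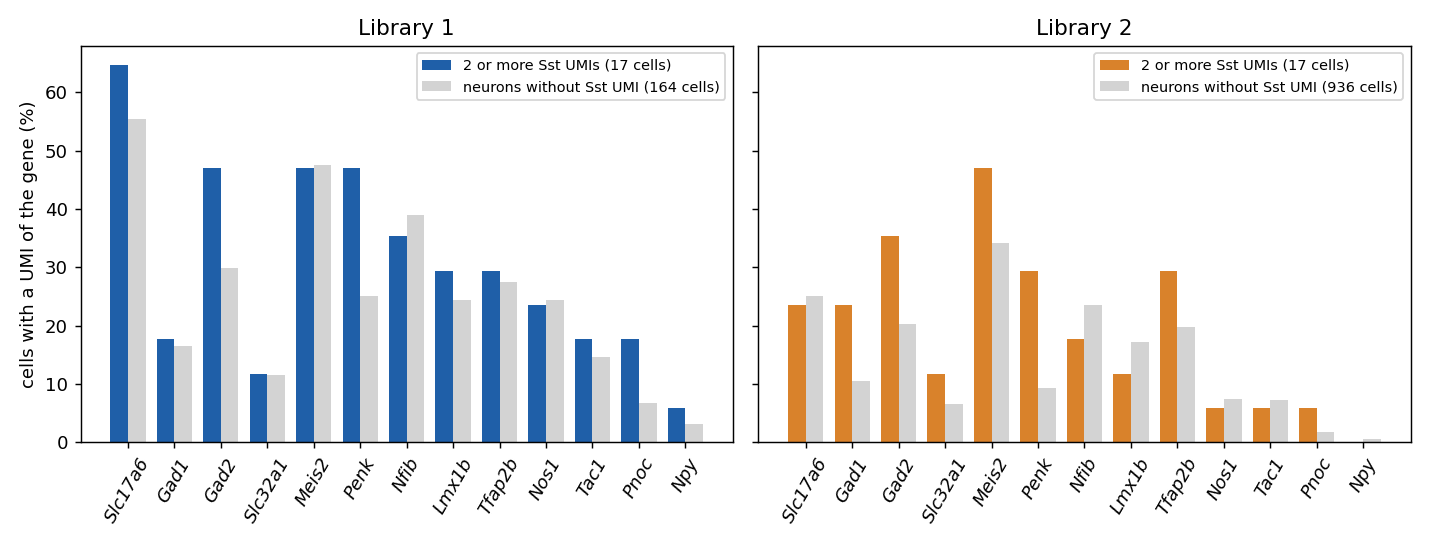
Percent of cells with a UMI of each gene, among cells with 2 or more Sst UMIs (coloured, 17 per library) and neurons without Sst (grey, 164 and 936 cells). Penk reaches 47.1% and 29.4% of the Sst cells against 25.0% and 9.29% of the others, while Npy was found in 1 Sst cell of library 1 and none of library 2.

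UMIs of ligand and receptor in the same cell were counted next. Of the 28 cells of library 1 with an Sst UMI, 7 also had Sstr2, 3 had Sstr1 and 1 had Sstr3. Of the 78 such cells of library 2, 2 had Sstr2, none had Sstr1 and 1 had Sstr3. Among neurons without an Sst UMI, 23 of 164 and 35 of 936 had Sstr2, and 12 and 14 had Sstr1. The cells with Sst include 6 non-neuronal cells of library 2, and 4 and 15 mixed or unassigned cells. Sstr2 and Sstr3 were seen together in 6 and 1 cells, and Sstr1 and Sstr2 in 4 and 2. At these depths a missing UMI does not show that a gene was off.

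The pathway downstream of the receptors was followed in gene lists, in noradrenergic against other neurons. Over all 11487 genes the median log2 fold was -0.01, and 16.3% were called higher and 16% lower with edgeR, 5.11% and 5.37% with DESeq2; each list's count stands against these shares. Of 13 genes listed for inhibitory G proteins, 10 rose and none fell, with a median of 0.55, and 3 did not pass. The list holds the alpha subunits Gnai1, Gnai2, Gnai3, Gnao1 and Gnaz, and its other genes encode beta and gamma subunits. Gng4, a gamma subunit, was 239.9 against 64.8 CPM and 196.2 against 64.3 (log2 fold 1.71 ± 0.16, edgeR adjusted p = 1.7e-07). Gnb4, a beta subunit, was 76.9 against 18.8 CPM and 45.1 against 22.1. Gnai2, an inhibitory alpha subunit, was 102.2 against 43.7 CPM and 101.8 against 47.0. With DESeq2, 4 of the 13 rose and none fell. Of 8 adenylyl cyclases, 6 fell and none rose, with a median of -1.19, and with DESeq2 3 fell. Adcy8, a calcium-stimulated cyclase, was 12.1 against 137.4 CPM and 16.0 against 164.0 (log2 fold -3.47 ± 0.25, edgeR adjusted p = 2.84e-09). Adcy3 was 9.11 against 33.3 CPM and 11.6 against 51.8, and Adcy5 and Adcy9 did not pass.

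The channel genes moved in both directions. Of 3 GIRK subunits tested of 4, Kcnj9 rose (64.8 against 43.1 CPM and 62.5 against 37.4, edgeR adjusted p = 0.0362) and Kcnj3 fell (92.1 against 153.1 and 78.5 against 108.0, edgeR adjusted p = 0.00833). Kcnj6, at 122.5 against 108.8 CPM and 127.9 against 120.6, did not pass, and with DESeq2 none of the 3 did. Of the presynaptic calcium channel genes, Cacna1e (R-type) rose with a log2 fold of 0.71 ± 0.13, Cacna1a (P/Q-type) fell with -0.46 ± 0.13, and Cacna1b (N-type) did not pass; with DESeq2, 1 rose and none fell. Of the receptor kinases and arrestins, 1 of 7 rose, Grk3, at 124.5 against 43.7 CPM and 109.0 against 50.9, and none fell, a share near that of all genes. Of 6 phosphatases and scaffolds tested, 3 fell, Ptprj, Shank3 and Shank1, and none rose, and with DESeq2 1 fell. Against non-neuronal cells, where 29% of all genes were called higher and 29.8% lower, all 3 tested GIRK subunits and all 3 calcium channel genes rose, and DESeq2 gave the same counts. In that comparison 7 of the 13 genes listed for inhibitory G proteins rose and 1 fell. Of 7 adenylyl cyclases 2 rose and 2 fell, and of 6 receptor kinases and arrestins 2 rose and 1 fell. Of 6 phosphatases and scaffolds 1 rose and 4 fell. Of 10 peptide processing genes 7 rose and 1 fell, and of the 4 tested of 11 genes known to accompany Sst elsewhere in the brain 3 rose and 1 fell. DESeq2, which called 15% of all genes higher and 17% lower, gave 5 higher and 1 lower, 2 and 1, 1 and 1, 1 and 2, 7 and 1, and 3 and 0 for these lists in the same order.

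Among 10 tested genes of peptide processing, Chgb, a granin of dense-core vesicles, rose from 244.2 and 160.7 to 696.4 and 830.0 CPM (log2 fold 1.89 ± 0.17, edgeR adjusted p = 7.96e-08). Chga rose as well, Cpe, a carboxypeptidase of prohormone maturation, fell, and 7 did not pass. With DESeq2, 1 rose and none fell. Both counts are near the share of all genes called, 32.3% with edgeR and 10.5% with DESeq2. Of 9 tested genes known to accompany somatostatin in neurons elsewhere in the brain, 6 fell in noradrenergic neurons, 1 rose and 2 did not pass, with a median log2 fold of -2.12, whether Pnoc entered at its fitted value or at its bound. With DESeq2, 3 fell and 1 rose. Pnoc, the nociceptin precursor, had 0 noradrenergic UMIs and was at least 5.18-fold lower, with 3 counts over both libraries as the floor. Tac1, the substance P precursor, stood at 1.01 against 77.5 CPM and 0 against 33.5, and Penk at 15.2 against 79.3 and 2.91 against 51.5. Pnoc and Tac1 passed the low-count filter through the other neurons alone, so they could hardly have been called higher. The counts and the median of this list therefore depend in part on that filter. The member that rose, Chodl, a marker of long-range somatostatin cells in the cortex, was 231.8 against 3.47 CPM and 129.4 against 5.69 (log2 fold 5.22 ± 0.29, edgeR adjusted p = 1.13e-10).

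**Figure D5:**
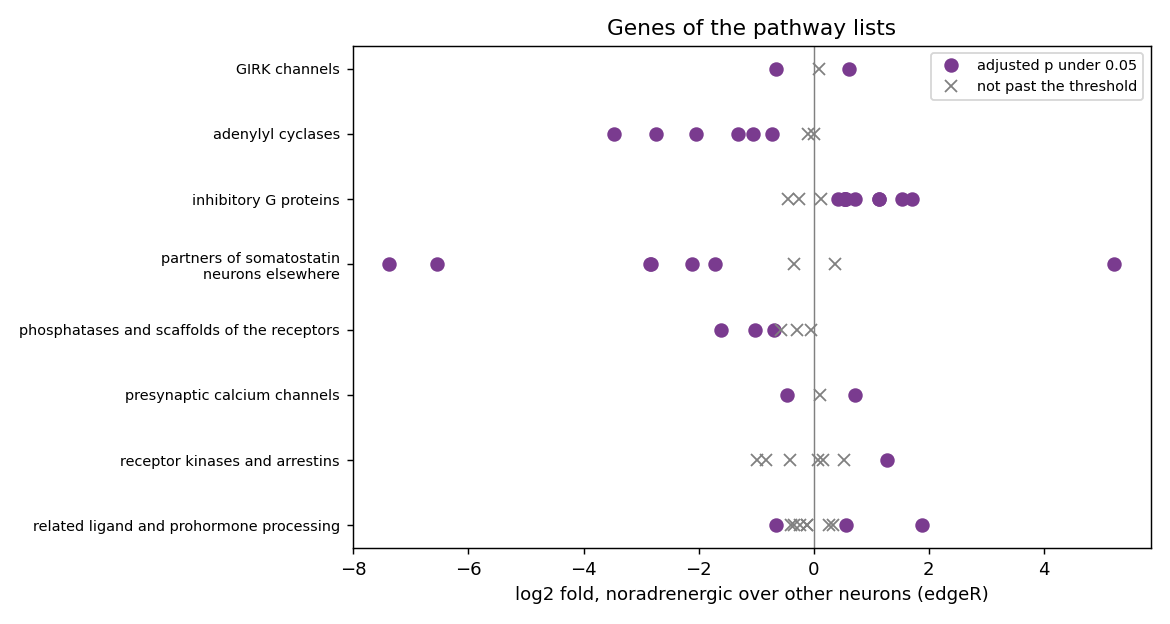
Log2 fold of noradrenergic over other neurons (edgeR) for every tested gene of 8 pathway lists; filled circles passed an adjusted p of 0.05 and crosses did not. The 10 genes of the inhibitory G protein list that passed lie above 0, and the 6 adenylyl cyclases that passed lie below it. The point at the far left, Pnoc, has 0 noradrenergic UMIs and its fitted value is no bound.

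In inhibitory against excitatory neurons, genes of 4 of the 8 lists passed. Gng4 fell (43.9 against 83.4 CPM and 43.4 against 86.8), as did Cacna1e, Pcsk1, a prohormone convertase, and Scg2, a granin. Pnoc rose with a log2 fold of 3.05 ± 0.45 and Satb1 with 1.78 ± 0.28, while Tac1 and Calb2 fell. No adenylyl cyclase, GIRK subunit, receptor kinase, arrestin, phosphatase or scaffold passed, and with DESeq2 the only one of these genes to pass was in the peptide processing list.

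The genes whose levels ran most like those of Sstr2 and Sst were found over 24 sums (12 classes in each of 2 libraries) and 9679 genes, as log2(CPM + 1). The points share libraries and class depths, so the correlations are descriptions. For Sstr2 they were Fibcd1 (Pearson r 0.869), Pgr15l (0.854), Rtl1 (0.827), Cpne5 (0.788) and Dlk1 (0.777). In noradrenergic neurons Dlk1, an imprinted gene for a membrane protein related to Notch ligands, stood at 518.3 and 530.5 CPM. For Sst they were Gm30003 (0.909), the transcription factor Bcl11a (0.879), Doc2b (0.867), which encodes a calcium sensor of vesicle release, L3mbtl4 (0.850) and Stum (0.849).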

How the data were processed

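The deposited matrices hold counts of UMIs per gene and cell barcode, made by the authors with Cell Ranger (6.1.2 per the file headers, 7.0 per the submitters' processing notes) on mm10 (GRCm38). Whether introns or strand were used in counting is not given in the sources used here.

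From these counts, cells needed 300 detected genes and no more than 20% of UMIs from mitochondrial genes, and the cells with the highest Scrublet scores (scanpy 1.11.5) were removed at an assumed 0.8% per 1000 barcodes, 1 and 61 cells. A marker list passed with 3 UMIs, 2 markers and 2-fold enrichment; remaining neurons were split by 1 transmitter UMI and a 3-fold excess. The members and lists were chosen with earlier results of these data known, and the rule for scoring the markers was set after the members' values had been seen. UMIs were summed per class and library and tested with edgeR 4.0.16 (quasi-likelihood, TMM, filterByExpr, library as a block, Benjamini-Hochberg adjustment, two-sided), which leaves 1 residual degree of freedom, and with DESeq2 1.42.0 as an alternative. Library is the block because both classes of a comparison come from the same libraries. The libraries are called independent samples without naming the animals, so the spread between these 2 libraries may be technical. With 1 residual degree of freedom, the spread behind each gene's p-value leans on that of all genes tested. The p-value depends on the fit: Sstr2 in noradrenergic against non-neuronal cells had an edgeR adjusted p of 1.14e-13, or 4e-04 without the library block. The edgeR test was also run on simulated counts with known changes. The same spread was set for every gene, so these rates may not hold for sparse genes. It recovered 19.4% of 2-fold and 70.7% of 4-fold changes in noradrenergic against other neurons. Against non-neuronal cells it recovered 14.7% and 86.6%, in inhibitory against excitatory neurons 1.1% and 53.6%, and in neurons against non-neuronal cells 9.8% and 74.7%. A gene that did not pass may therefore still differ by such a fold. Unchanged genes falsely called numbered 9, 3, 0 and 4 in the comparisons as ordered above. In the first of these, 19 and 70 changed genes were recovered. Intervals (95%, exact Poisson or Clopper-Pearson) and floors (3 counts) cover counting error only. The text names all 5 members; up to 4 genes per list, those of largest fold among the called ones; and the 5 genes most like Sst and Sstr2. Penk and the list genes named as not passing were added after their values were seen.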

Additional observations from a re-analysis of the deposited data

How the results depend on the processing

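Over 23 results and 146 alternatives, 124 kept their direction and side of the threshold or moved by less than their spread; 1 reversed, and 21 moved. Sst in inhibitory against excitatory neurons reversed with marker clusters (-0.23), and the cause was not tested. With 1 library left out, a change of sign counted as reversed only where the main test passed. Sst in this comparison did not pass. It was lower in inhibitory neurons of library 1 (19.1 against 24.0 CPM) and higher in those of library 2 (40.4 against 28.3), and this is not among the reversals. DESeq2 called 1204, 3157, 60 and 3776 genes in noradrenergic against other neurons, noradrenergic against non-neuronal, inhibitory against excitatory and neurons against non-neuronal cells, where edgeR called 3711, 5790, 376 and 6370. Without the replicate block, inhibitory against excitatory neurons called 126 genes, and no call of Sst or Sstr2 changed without the block.

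Without the low-count filter the median log2 fold of all genes was -0.28, -0.23, -0.08 and 0.28 in the same order. Leaving out a library gives values with no test. The Sst log2 fold ranged from -4.04 to -2.69 and the Sstr2 fold from 2.48 to 2.54 in noradrenergic against other neurons. Sstr2 ranged from 3.30 to 4.78 against non-neuronal cells and from -1.90 to -1.61 in inhibitory against excitatory neurons, and in neurons against non-neuronal cells Sst from 2.34 to 5.13, Sstr2 from 2.04 to 4.64 and Sstr1 from 0.87 to 2.54. The Sstr2 level in excitatory cells was 10.5 CPM with marker clusters, 14.8 with at least 2 transmitter UMIs and 10.2 as a mean over cells. The Sst level there was 38.1, 19.3 and 29.7 CPM. The alternatives of 2 transmitter UMIs and, for the levels, no doublet removal were chosen after seeing the data. At 500 UMIs per cell the share of library 2 cells with Sst was 1.38% in inhibitory and 1.10% in excitatory neurons; at 2000 UMIs it was 8.54% in excitatory neurons of library 1. Depth limits Sstr1, Sstr3 and Sstr4 throughout, and shares in library 1's noradrenergic cells after thinning.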

Other observations

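Cells assigned to no class also held Sst, with 6 UMIs in 7 unassigned cells of library 1 (73.4 CPM) and 18 UMIs in 406 of library 2 (36.8 CPM). The unassigned cell of library 2 with the most Sst, 5 UMIs, had 9 UMIs each of Penk and Meis2. The single cholinergic cell of library 1 held 3 Sstr1 UMIs, a count that no other cell exceeded, and the 4 cholinergic cells of library 2 held none.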
